A study of Gossypium hirsutum with 2 samples.

Results

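Unigene0015644 and Unigene0043383 were examined among the 136262 assembled transcript sequences, called unigenes, of an upland cotton (Gossypium hirsutum) data set. The deposited text names Unigene0015644 as the cyclin-dependent protein kinase inhibitor Siamese, after a Gossypium arboreum entry, and Unigene0043383 as cyclin p3,2, after a Theobroma cacao entry. The 2 unigenes were picked by name for their large difference between the libraries, so their own values are a description and are not tested. Other unigenes whose text contains Siamese (4) or cyclin p (13) were chosen by that text alone and are set beside them. FL ovule was ovule of XZ142FLM, with the genotype li3li3n2n2 and seeds labelled fuzzless-lintless, and WT fiber came from the cultivar Xuzhou142, labelled wild type. Both samples were taken 10 days post anthesis from greenhouse plants, and each group had 1 library of RNA whose source in number of plants is not stated. Tissue and genotype differed together and cannot be told apart, and in bulk tissue fewer cells of a type and less RNA per cell cannot be told apart either.

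SIAMESE belongs to a plant family of small proteins that bind cyclin-dependent kinases (CDKs) and block their activity. In Arabidopsis it is known from leaf hairs, where loss of the gene turns normally unicellular hairs multicellular, because it keeps cells from dividing while they go on copying their DNA (endoreduplication). P-type cyclins resemble the yeast cyclin Pho80, which acts with a kinase in phosphate signalling, and in Arabidopsis they can bind the A-type CDK. A cotton fiber is a seed hair, a single epidermal cell that elongates without dividing, whereas an ovule contains seed coat, endosperm and embryo with dividing cells.

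FL ovule had 53.4 M unique reads and WT fiber had 45.6 M, given per unigene as counts and as RPKM, that is reads scaled to the length of the unigene and to the read total of the library. The 30 most-read unigenes held 38.5% of the reads of FL ovule and 21.1% of those of WT fiber, which lowers the RPKM of all others by unequal amounts. Ratios were taken as log2((RPKM in FL ovule + 1) / (RPKM in WT fiber + 1)) for the 63258 unigenes that reached an RPKM of 1 in either library, called measured. Their median was 0.39, so a value of 0.39 on this scale is the middle of these data. Of the measured unigenes, 10.5% were at least 2-fold lower in FL ovule on this scale and 15.3% higher. Equalizing the RPKM sums of the libraries moves these background shares to 21.0% lower and 7.25% higher, and totals that leave out the 30 most-read unigenes move them to 6.34% and 28.4%, so a list's count under another scaling is read against the share under that scaling. A unigene that reached 1 RPKM in only 1 library had to be lower in the other, in the lists and in the background shares alike. Counts past 2-fold are therefore descriptions. Where a fold has an interval, the added 1 was left out, and the exact 95% interval covers counting error only. Since each group was a lone library, the groups could not be tested and no replicate checks any difference below.

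Fiber, histone and embryo markers went with the labelled tissues, while storage and green tissue markers were mixed. Unigenes with fiber protein or alpha expansin texts summed to 999 RPKM in FL ovule and 15334 RPKM in WT fiber, with 22 of 59 measured unigenes at least 2-fold lower in FL ovule and 5 higher (35 and 2 of 57 with equalized RPKM sums). An alpha expansin, a cell wall loosening protein (Unigene0055966), had 7.32 RPKM in FL ovule and 6967 RPKM in WT fiber, and fiber protein Fb10 (Unigene0018965) had 17.8 RPKM in FL ovule and 2696 RPKM in WT fiber. Core and linker histones, taken as markers of dividing cells, summed to 4922 RPKM in FL ovule and 1150 RPKM in WT fiber, with 1 of 72 lower in FL ovule and 50 higher (3 and 42 of 69). Histone H3.2 (Unigene0072812) had 60.7 RPKM in FL ovule and 1.37 RPKM in WT fiber, and an H2AXb-like histone (Unigene0038487) had 115 RPKM in FL ovule and 5.79 RPKM in WT fiber. The endosperm, early embryo and seed coat list summed to 334 RPKM in FL ovule and 101 RPKM in WT fiber, with 0 of 6 lower in FL ovule and 5 higher (0 and 3 of 5). Its leafy cotyledon1-like unigene (Unigene0036895), an embryo regulator, had 15.5 RPKM in FL ovule against 0.336 RPKM in WT fiber, and leucoanthocyanidin reductase 1 (Unigene0059650), an enzyme of tannin synthesis, had 180 RPKM in FL ovule and 41.9 RPKM in WT fiber.

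Of the seed storage and late embryogenesis unigenes, 6 of 28 were lower in FL ovule and 13 higher (8 and 9 of 26 with equalized RPKM sums). That is 21.4% and 46.4% beside 10.5% and 15.3%, and 30.8% and 34.6% beside 21.0% and 7.25%. In sum they went the other way, with 403 RPKM in FL ovule and 695 RPKM in WT fiber. The 11S globulin Unigene0127740, a seed storage protein, had 13.2 RPKM in FL ovule and 0.0353 RPKM in WT fiber, while a late embryogenesis abundant protein (Unigene0123729) had 0.269 RPKM in FL ovule and 70.5 RPKM in WT fiber. Of the photosystem and light-harvesting unigenes, 11 of 86 were lower in FL ovule and 20 higher, that is 12.8% and 23.3% beside 10.5% and 15.3% of all measured unigenes, and 19 and 10 of 89 with equalized RPKM sums, that is 21.3% and 11.2% beside 21.0% and 7.25%. These green tissue unigenes summed to 820 RPKM in FL ovule and 1263 RPKM in WT fiber. A chlorophyll A-B binding protein (Unigene0074073) had 5.45 RPKM in FL ovule and 0.188 RPKM in WT fiber, and photosystem I subunit O (Unigene0141491) had 0.166 RPKM in FL ovule and 5.28 RPKM in WT fiber. Unigenes of these lists with 0 reads numbered 1 of 77 fiber, 0 of 77 histone, 0 of 8 endosperm and seed coat, 1 of 38 storage and 4 of 151 green unigenes in FL ovule, and 1, 1, 1, 5 and 5 in WT fiber. The part that this difference in cell types plays in the values below was not tested.

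The SIAMESE unigene Unigene0015644 had 33 reads in FL ovule and 2708 reads in WT fiber over its 643 bases. That is 0.961 RPKM (0.662 to 1.35) in FL ovule and 92.3 RPKM (88.9 to 95.9) in WT fiber, with exact 95% Poisson intervals. The level was 96.0-fold lower in FL ovule (95% counting interval 68.2 to 140), and the log2 ratio was -5.57. In FL ovule it ranked 57480 by RPKM among the 63258 measured unigenes, below most of them, while in WT fiber it ranked 1196, within the most abundant few percent. The authors' coverage value, the share of the sequence reached by reads, was 61.9% in FL ovule against 99.7% in WT fiber.

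The cyclin p3,2 unigene Unigene0043383 had 45 reads in FL ovule and 8147 reads in WT fiber over 915 bases. Its level was 0.921 RPKM (0.672 to 1.23) in FL ovule and 195 RPKM (191 to 199) in WT fiber, a level 212-fold lower in FL ovule (158 to 291), with a log2 ratio of -6.67. It ranked 57721 by RPKM in FL ovule and 483 in WT fiber. Reads covered 87.5% of the sequence in FL ovule and 99.9% in WT fiber. Among the 41574 measured unigenes with annotation text, ordered from the lowest log2 ratio, it stood at rank 34 and SIAMESE at rank 79.

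The 2 unigenes lay close together in FL ovule and apart in WT fiber. Per length, cyclin p3,2 was at 0.958 times the SIAMESE level in FL ovule, where the intervals overlapped, and at 2.11 times that level in WT fiber, where they did not. Equalizing the RPKM sums of the libraries made SIAMESE 148-fold and cyclin p3,2 327-fold lower in FL ovule. Totals that leave out the 30 most-read unigenes made them 74.9-fold and 165-fold lower. Both were below 1 RPKM there as deposited and passed the filter through WT fiber alone.

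**Figure D1:**
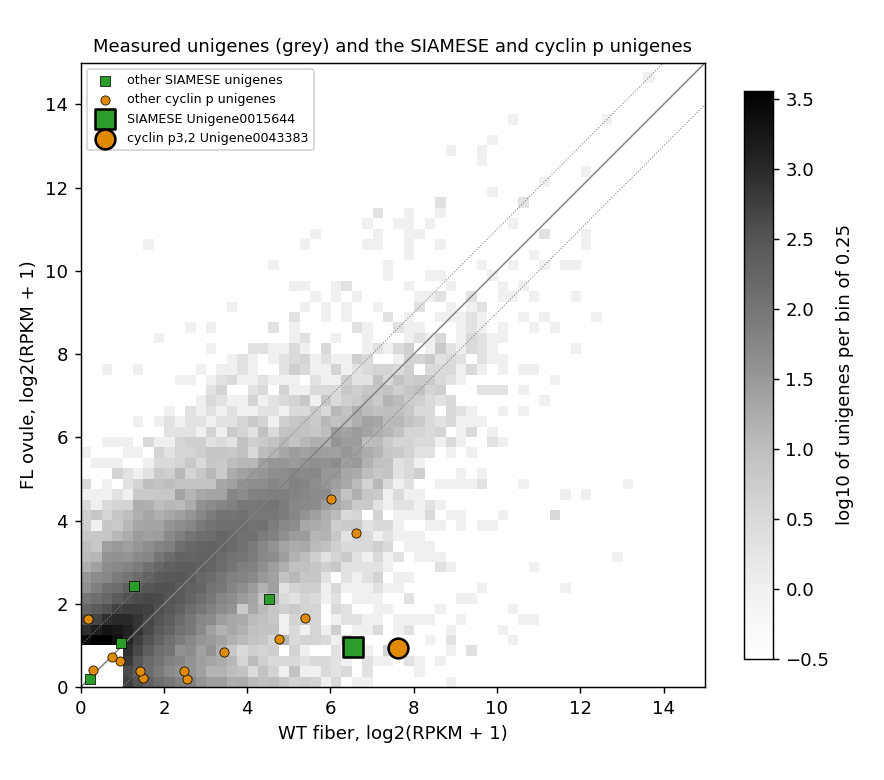
Levels of measured unigenes as log2(RPKM + 1) in WT fiber (horizontal) and FL ovule (vertical); grey squares give the log10 number of unigenes per bin of 0.25, the solid line marks equal values, the dotted lines 2-fold differences, and coloured points the SIAMESE and cyclin p unigenes, 4 of which lie below the filter. Unigene0015644 and Unigene0043383 lie far to the lower right, at 0.961 and 0.921 RPKM in FL ovule and 92.3 and 195 RPKM in WT fiber.

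The other unigenes with the Siamese text did not share 1 direction. Unigene0037507 had 3.32 RPKM in FL ovule and 21.8 RPKM in WT fiber, on 134 and 753 reads, and was 6.58-fold lower in FL ovule (5.47 to 7.96). Unigene0134673 went the other way, with 4.36 RPKM in FL ovule and 1.41 RPKM in WT fiber, on 220 and 61 reads, a ratio of 3.08 (2.31 to 4.16). That unigene was past 2-fold as deposited but not after equalizing the RPKM sums of the libraries or their upper quartiles. Unigene0090184 had 1.08 RPKM in FL ovule and 0.958 RPKM in WT fiber, with overlapping intervals, and Unigene0090182 had 4 reads in each library. So 2 of the 4 measured Siamese unigenes were at least 2-fold lower in FL ovule and 1 was higher, where 10.5% of all measured unigenes were lower by that much and 15.3% higher. Among those with annotation text, 13.2% were lower and 15.3% higher. The lower ones include Unigene0015644, which was chosen for its difference and passed the filter through WT fiber alone.

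Unigene0015644 made up most of the Siamese level in WT fiber and little of it in FL ovule. The 5 unigenes summed to 9.86 RPKM in FL ovule and 117 RPKM in WT fiber, an 11.8-fold lower sum in FL ovule. Unigene0015644 supplied 9.75% of that sum in FL ovule and 79.1% in WT fiber. In FL ovule the largest shares came from Unigene0134673 (44.2%) and Unigene0037507 (33.7%), which in WT fiber supplied 1.21% and 18.7%. Without Unigene0015644 the sum was 8.90 RPKM in FL ovule and 24.4 RPKM in WT fiber, 2.74-fold lower in FL ovule. In FL ovule Unigene0015644 stood the fourth of the 5 by level, with an interval overlapping that of Unigene0090184 just above it, and in WT fiber it stood the first, clear of Unigene0037507. The deposited function text of Unigene0015644 and Unigene0037507 is transferase activity on phosphorus-containing groups, a term for kinase-like enzymes and not for their inhibitors, and the other 3 carry no function text.

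Of the 14 unigenes with cyclin p text, 10 were at least 2-fold lower in FL ovule, 1 was higher and 3 did not reach 1 RPKM in either library. Among all measured unigenes 10.5% were lower and 15.3% higher. The lower ones include Unigene0043383, which was chosen for its difference, and 6 of the 10 passed the filter through WT fiber alone, so that they had to be lower in FL ovule and the count is only a description. Without Unigene0043383 the count was 9 lower and 1 higher of 13, with 5 of the 9 passing through WT fiber alone. The 4 unigenes with an RPKM of 1 or more in both libraries, which do not include Unigene0043383, were each at least 2-fold lower in FL ovule. The median log2 ratio of the 11 that passed, Unigene0043383 included, was -2.35.

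Cyclin p3,2 was carried by 3 further unigenes, shorter and with neighbouring identifiers. Unigene0036651 (389 bases) had 2.17 RPKM in FL ovule and 41.1 RPKM in WT fiber, on 45 and 730 reads, and was 18.98-fold lower in FL ovule (14.04 to 26.3). Unigene0036650 (246 bases) had 4 reads in FL ovule and 52 in WT fiber, 15.2-fold lower in FL ovule (5.60 to 57.9), and Unigene0036649 (254 bases) had 2 and 56 reads, 32.8-fold lower (8.66 to 277). All 4 unigenes of this text were therefore lower in FL ovule, and the interval of Unigene0043383 (158 to 291) lay above that of Unigene0036651. Whether the short ones are pieces or homoeologous copies of the same gene is not given, and reads could be divided among them. Together the 4 summed to 3.54 RPKM in FL ovule and 246 RPKM in WT fiber, 69.4-fold lower in FL ovule. Without Unigene0043383 the sum was 2.62 RPKM in FL ovule and 50.6 RPKM in WT fiber, 19.3-fold lower.

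Cyclin p4,1 was the text with the most unigenes, 8. Its most abundant, Unigene0052920, had 12.05 RPKM in FL ovule and 97.1 RPKM in WT fiber, on 544 and 3746 reads, and was 8.06-fold lower in FL ovule (7.36 to 8.83). Unigene0050296 had 1.22 RPKM in FL ovule and 26.1 RPKM in WT fiber, 21.3-fold lower (16.8 to 27.4), and Unigene0054711 had 0.807 RPKM in FL ovule and 9.79 RPKM in WT fiber, 12.1-fold lower (8.79 to 17.2). Their intervals show that the fold of Unigene0052920 was smaller than that of Unigene0050296 beyond counting error.

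The 5 remaining cyclin p4,1 unigenes were near or below 1 RPKM. Unigene0123746 had 4 reads in FL ovule against 37 in WT fiber, 10.8-fold lower in FL ovule, and Unigene0054710 had 11 and 52, 5.53-fold lower. With 1 RPKM added the log2 ratio of Unigene0054710 was -1.04, and -0.98 with median ratio scaling, just short of 2-fold, where its fold without the added 1 was 5.01. Unigene0141466 (17 reads in FL ovule, 25 in WT fiber), Unigene0118966 (11 and 10) and Unigene0007430 (5 and 3) did not reach 1 RPKM in either library, and their intervals included equal levels. Summed over all 8, cyclin p4,1 stood at 16.1 RPKM in FL ovule and 138 RPKM in WT fiber, 8.60-fold lower in FL ovule.

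Cyclin p1,1 and cyclin p2,1 had 1 unigene each and differed in direction. Cyclin p1,1 (Unigene0131124) had 22.0 RPKM in FL ovule and 63.1 RPKM in WT fiber, on 1247 and 3052 reads, 2.86-fold lower in FL ovule (2.68 to 3.06). Cyclin p2,1 (Unigene0035785) had 99 reads in FL ovule and 5 in WT fiber, or 2.10 and 0.124 RPKM, and its level in FL ovule was 16.9 times that in WT fiber (7.01 to 53.3). It was the only measured cyclin p unigene higher in FL ovule. It passed the filter through FL ovule alone, so it had to be higher there. Its direction held under the 4 other scalings tried, whose shifts are small beside that ratio. A further unigene, annotated cyclin-P3-1-like (Unigene0015902) and missed by the text cyclin p, had 1.20 RPKM in FL ovule and 1.07 RPKM in WT fiber, with overlapping intervals.

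**Figure D2:**
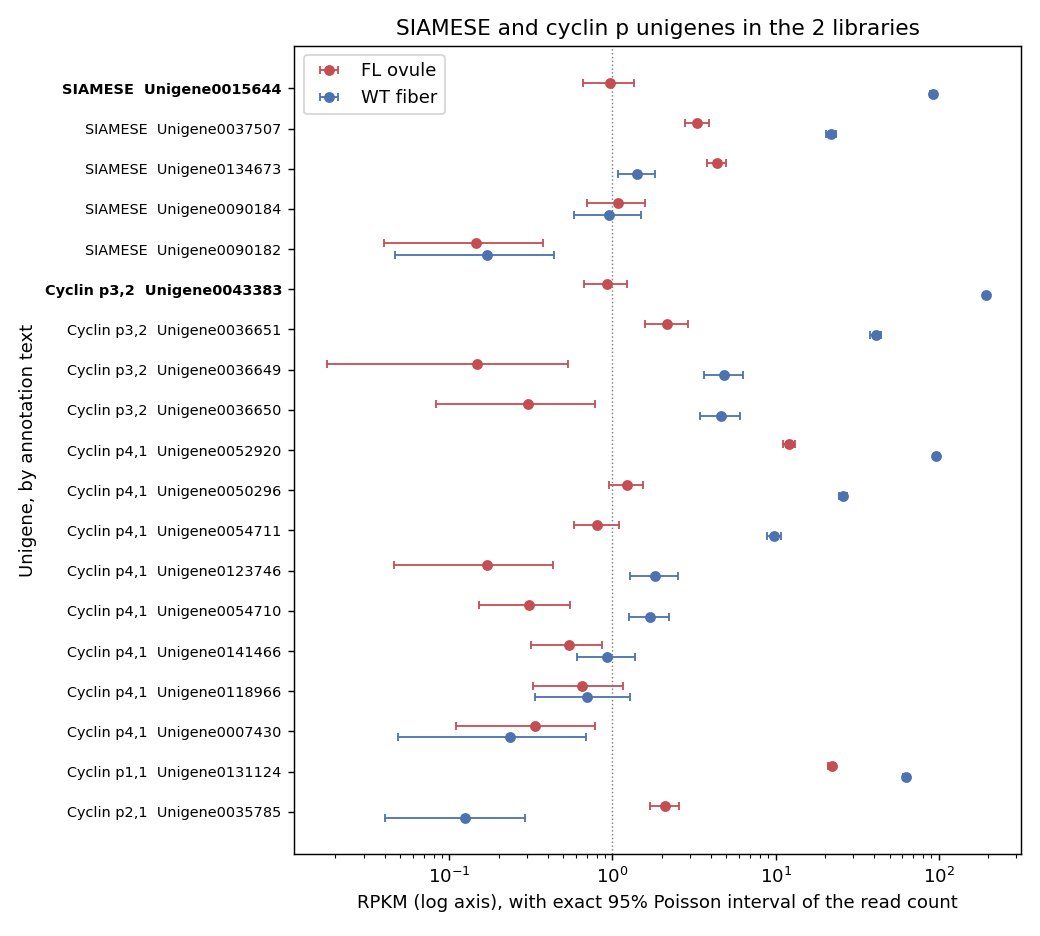
RPKM on a log axis of the 5 Siamese and 14 cyclin p unigenes, FL ovule in red and WT fiber in blue, with exact 95% Poisson intervals of the read counts; bold names mark Unigene0015644 and Unigene0043383 and the dotted line 1 RPKM. The blue points lie right of the red ones for 10 of the 11 measured cyclin p unigenes, and left of them beyond the intervals for Unigene0134673 (1.41 RPKM in WT fiber) and Unigene0035785 (0.124 RPKM in WT fiber).

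The composition of the cyclin p level differed between the libraries. The 14 unigenes summed to 43.8 RPKM in FL ovule and 447 RPKM in WT fiber, 10.2-fold lower in FL ovule, and without Unigene0043383 to 42.8 and 252 RPKM, 5.89-fold lower. Unigene0043383 supplied 2.11% of the sum in FL ovule, where it stood the sixth of the 14 with an interval overlapping those of its neighbours in the order, and 43.6% in WT fiber, where it stood the first. Cyclin p1,1 supplied 50.4% in FL ovule against 14.1% in WT fiber, and the cyclin p4,1 unigene Unigene0052920 supplied 27.5% in FL ovule and 21.7% in WT fiber. In WT fiber the order by level was Unigene0043383, Unigene0052920, Unigene0131124, Unigene0036651 and Unigene0050296, each apart from the next beyond counting error. In FL ovule it was Unigene0131124 and Unigene0052920, followed by Unigene0036651 and Unigene0035785, whose intervals overlapped.

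**Figure D3:**
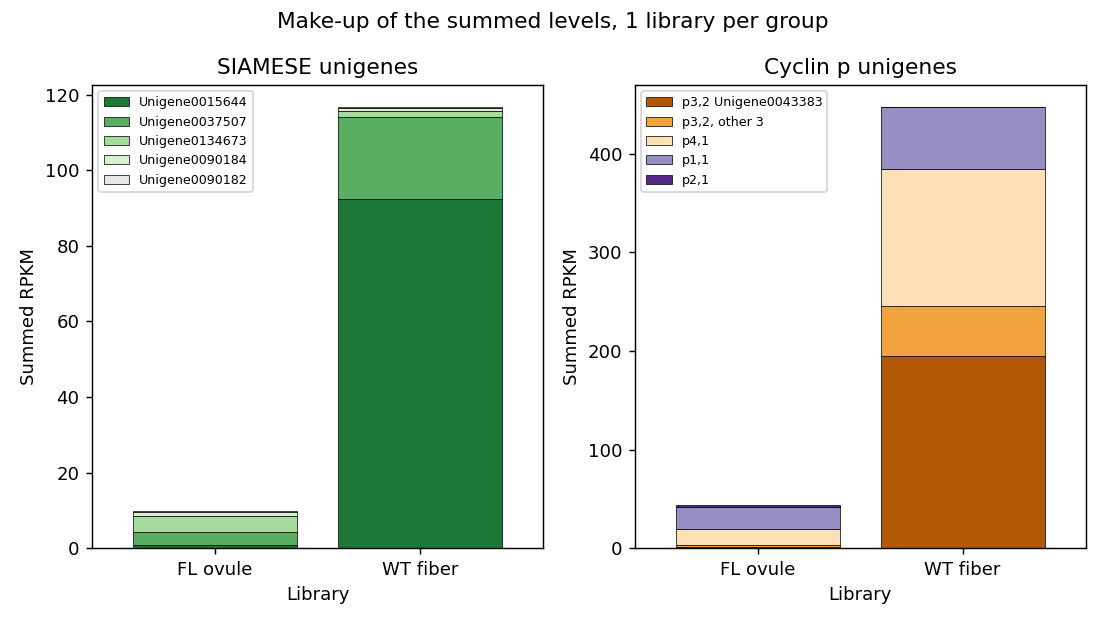
Summed RPKM of the Siamese unigenes (left) and of the cyclin p unigenes (right) in FL ovule and WT fiber, each bar divided by unigene or by annotation text, with 1 library per group and no error bars. The sums are 9.86 and 43.8 RPKM in FL ovule and 117 and 447 RPKM in WT fiber, where the darkest segments at the base, Unigene0015644 and Unigene0043383, hold 79.1% and 43.6%.

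Further inhibitors of the SIAMESE-related group, named SMR in the deposited text, were looked at as a separate list after the matched texts and values had been seen. The SMR3-like Unigene0083307 had no read in FL ovule and 711 reads in WT fiber, where its level was 25.8 RPKM. Taking 3 reads, or 0.0929 RPKM, as the limit that a count of 0 allows in FL ovule, the level there was at least 277-fold lower. The exact 95% counting interval used for the other folds had its lower limit at 225-fold. The other SMR3-like unigene, Unigene0120411, had 1.78 RPKM in FL ovule and 13.3 RPKM in WT fiber, 7.46-fold lower in FL ovule (6.01 to 9.33). The SMR1-like Unigene0071860 had 4.85 RPKM in FL ovule and 2.57 RPKM in WT fiber, with a log2 ratio of 0.71, and passed 2-fold only when the totals left out the 30 most-read unigenes. Thus 2 of these 3 unigenes were at least 2-fold lower in FL ovule, beside 10.5% of all measured unigenes, and Unigene0083307 passed the filter through WT fiber alone.

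KIP-related proteins, the other plant family of CDK inhibitors, were divided. Of 13 measured, 3 were at least 2-fold lower in FL ovule and 4 higher, and with equalized RPKM sums 3 of 12 were lower and 1 higher. The shares were 23.1% lower and 30.8% higher beside 10.5% and 15.3% of all measured unigenes. With equalized sums they were 25% and 8.33%, near the 21.0% and 7.25% of all measured unigenes. Their median log2 ratio was 0.89 beside 0.39 for all measured unigenes. The kip-related inhibitor 7 Unigene0058240 had 0.788 RPKM in FL ovule and 7.57 RPKM in WT fiber, 9.60-fold lower (7.12 to 13.2), whereas the inhibitor Unigene0090719 had 7.43 RPKM in FL ovule and 1.59 RPKM in WT fiber, a ratio of 4.66 (3.81 to 5.75). In sum this family stood at 51.3 RPKM in FL ovule and 38.6 RPKM in WT fiber.

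Cyclins of the D, A and B types, which drive entry into the cycle, DNA replication and mitosis, had both directions within each type. Of 20 D-type unigenes, 2 were at least 2-fold lower in FL ovule and 6 higher (3 and 4 of 17 with equalized RPKM sums), with a median log2 ratio of 0.30. The shares were 10% lower and 30% higher beside 10.5% and 15.3% of all measured unigenes. With equalized sums they were 17.6% and 23.5% beside 21.0% and 7.25%. The 2 largest D-type ratios were those of cyclin-D3-1, with 17.4 RPKM in FL ovule against 1.956 RPKM in WT fiber for Unigene0060120 and 15.2 RPKM against 2.002 RPKM for Unigene0060119. Of 8 A-type unigenes 2 were lower and 3 higher, that is 25% and 37.5%. With equalized sums 2 of 7 were lower and 3 higher, that is 28.6% and 42.9%. Cyclin A1,1 (Unigene0078305) had 53.4 RPKM in FL ovule and 4.56 RPKM in WT fiber, a ratio of 11.7 (10.53 to 13.03), while the cyclin-A1-1-like Unigene0068246 had 0.526 RPKM in FL ovule and 6.96 RPKM in WT fiber. Of 6 B-type unigenes 1 was lower and 3 were higher, that is 16.7% and 50%, and equalized sums gave the same counts. Cyclin b1,5 (Unigene0078085) had 61.5 RPKM in FL ovule and 13.7 RPKM in WT fiber, a ratio of 4.50 (4.22 to 4.796), and the cyclin-B2-like Unigene0127543 had 3.04 RPKM in FL ovule and 8.88 RPKM in WT fiber.

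Among the kinases, most unigenes lay within 2-fold. Of 22 CDK unigenes, 4 were at least 2-fold lower in FL ovule and 2 higher, with a median log2 ratio of 0.07. The shares were 18.2% lower and 9.09% higher beside 10.5% and 15.3% of all measured unigenes. With equalized RPKM sums 5 of 23 were lower and 2 higher. Those shares, 21.7% and 8.70%, were near the 21.0% and 7.25% of all measured unigenes. The higher ones were of the plant-specific mitotic B type. CDK B2,2 (Unigene0052296) had 105 RPKM in FL ovule and 7.77 RPKM in WT fiber, a ratio of 13.5 (12.3 to 14.8), and CDK B1,2 (Unigene0052137) had 47.9 RPKM in FL ovule and 4.66 RPKM in WT fiber. The CDK A unigene (Unigene0075911), named with CDK B1,2 after its values were seen because SIAMESE and P-type cyclins bind that kinase in Arabidopsis, had 11.2 RPKM in FL ovule and 20.2 RPKM in WT fiber, a log2 ratio of -0.79. The CDK 12-like Unigene0032459 had 6 reads in FL ovule and 573 in WT fiber, 112-fold lower in FL ovule (51.0 to 306). The kinase regulators CKS1, a docking subunit, and WEE1, an inhibitory kinase, had 4 of 7 unigenes higher by at least 2-fold in FL ovule and 0 lower (3 and 1 of 6 with equalized RPKM sums). That is 57.1% higher beside 15.3% of all measured unigenes, and 50% beside 7.25% with equalized sums. The CKS1 unigene Unigene0049731 had 21.7 RPKM in FL ovule and 3.66 RPKM in WT fiber, and Unigene0049730 had 5.75 RPKM in FL ovule against 1.58 RPKM in WT fiber.

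Of the genes for entry into and passage through DNA replication, about as many passed 2-fold higher in FL ovule as did not. Among 32 E2F, DP and retinoblastoma-related unigenes, which switch on replication genes or hold them off, 2 were lower, 17 were higher and 13 were neither, with a median log2 ratio of 1.01. Many of the 17 were below 1 RPKM in WT fiber and passed the filter through FL ovule alone, so they had to be higher there. Many also share the retinoblastoma-related text, and whether these are pieces of the same gene is not given. The count is therefore only a description. After equalizing the RPKM sums 2 of 27 were lower and 9 higher. The background shares were 10.5% lower and 15.3% higher as deposited, and 21.0% and 7.25% with equalized sums. A retinoblastoma-related 1 unigene (Unigene0054482) had 7.81 RPKM in FL ovule and 0.721 RPKM in WT fiber, a ratio of 10.8 (6.79 to 18.3), and the shorter Unigene0054484 had 8.53 and 1.13 RPKM. Much longer unigenes of that text, named after their values were seen, were Unigene0115721 (3601 bases) and Unigene0115722 (3481 bases). They had 8.51 and 4.89 RPKM in FL ovule and 4.07 and 2.49 RPKM in WT fiber. Their log2 ratios were 0.91 and 0.75, within 2-fold. Of 37 unigenes for replication licensing, such as the MCM helicase and the sliding clamp PCNA, 0 were lower, 18 higher and 19 neither (2 lower and 17 higher of 34 with equalized RPKM sums), with a sum of 398 RPKM in FL ovule and 76.6 RPKM in WT fiber. A PCNA unigene of 229 bases (Unigene0036327) had 31.1 RPKM in FL ovule and 2.68 RPKM in WT fiber, and an MCM2/3/5 family unigene (Unigene0093639) had 48.9 RPKM in FL ovule and 4.84 RPKM in WT fiber. The longer PCNA unigene Unigene0062919 (1186 bases), named after its values were seen, had 63.1 RPKM in FL ovule and 15.2 RPKM in WT fiber. Its log2 ratio was 1.98, beside 3.12 for Unigene0036327.

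Of 61 mitosis unigenes, 8 were lower in FL ovule and 19 higher, that is 13.1% and 31.1% beside 10.5% and 15.3% of all measured unigenes. With equalized RPKM sums 10 of 58 were lower and 11 higher, that is 17.2% and 18.97% beside 21.0% and 7.25%. The kinetochore protein NDC80 unigene Unigene0054240 had 6.77 RPKM in FL ovule and 0.278 RPKM in WT fiber, while Unigene0105177, with the broad text centromere protein, had 0.963 RPKM in FL ovule and 9.71 RPKM in WT fiber. The anaphase-promoting complex, which marks cyclins for destruction, had 1 of 13 unigenes higher by at least 2-fold and 0 lower (0 and 0 of 12 with equalized RPKM sums). Its higher share as deposited was 7.69% beside 15.3% of all measured unigenes. Its most changed unigenes at 5 RPKM or more had 15.9 RPKM in FL ovule against 7.31 RPKM in WT fiber (the subunit 15-like Unigene0041869) and 12.3 RPKM in FL ovule against 8.64 RPKM in WT fiber (subunit 8, Unigene0083396).

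Genes known for endoreduplication in Arabidopsis were listed without separating those that promote it from those that hold it back. Of 10 measured, 3 were past 2-fold towards FL ovule and 0 were lower (1 and 0 of 8 with equalized RPKM sums), with a median log2 ratio of 0.73. The higher share was 30% beside 15.3% of all measured unigenes, and 12.5% beside 7.25% with equalized sums. Past 2-fold, and named after their values were seen, were Unigene0122261 (Spo11/DNA topoisomerase VI), and Unigene0095491 and Unigene0133328 (both DP-E2F-like 1). Their log2 ratios were 1.51, 1.30 and 1.19. In WT fiber they had 0.282, 0.205 and 0.129 RPKM, on 3, 6 and 10 reads. They passed the filter through FL ovule alone, so they had to be higher there and the count is only a description. A unigene for subunit A of DNA topoisomerase VI (Unigene0069793), an enzyme needed for repeated rounds of replication, had 7.55 RPKM in FL ovule and 3.81 RPKM in WT fiber, and Unigene0069794 of the same text had 7.73 RPKM in FL ovule and 5.41 RPKM in WT fiber. FIZZY-related 2 (Unigene0105453), an activator of the anaphase-promoting complex named after its values were seen, had 7.07 RPKM in FL ovule and 8.98 RPKM in WT fiber. Other unigenes of that text leaned the other way, within 2-fold. Unigene0105449 had 3.29 RPKM in FL ovule and 2.54 RPKM in WT fiber, and Unigene0105452 had 1.75 and 1.58 RPKM.

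Taking the 12 inhibitor, cyclin, kinase, replication and mitosis lists as 1 set without the Siamese and cyclin p unigenes, 24 of 232 measured unigenes were at least 2-fold lower in FL ovule and 80 were higher, with a median log2 ratio of 0.63. The shares of 10.5% lower and 15.3% higher among all measured unigenes give the background. With equalized RPKM sums 31 of 213 were lower and 54 higher, beside 21.0% and 7.25%.

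**Figure D4:**
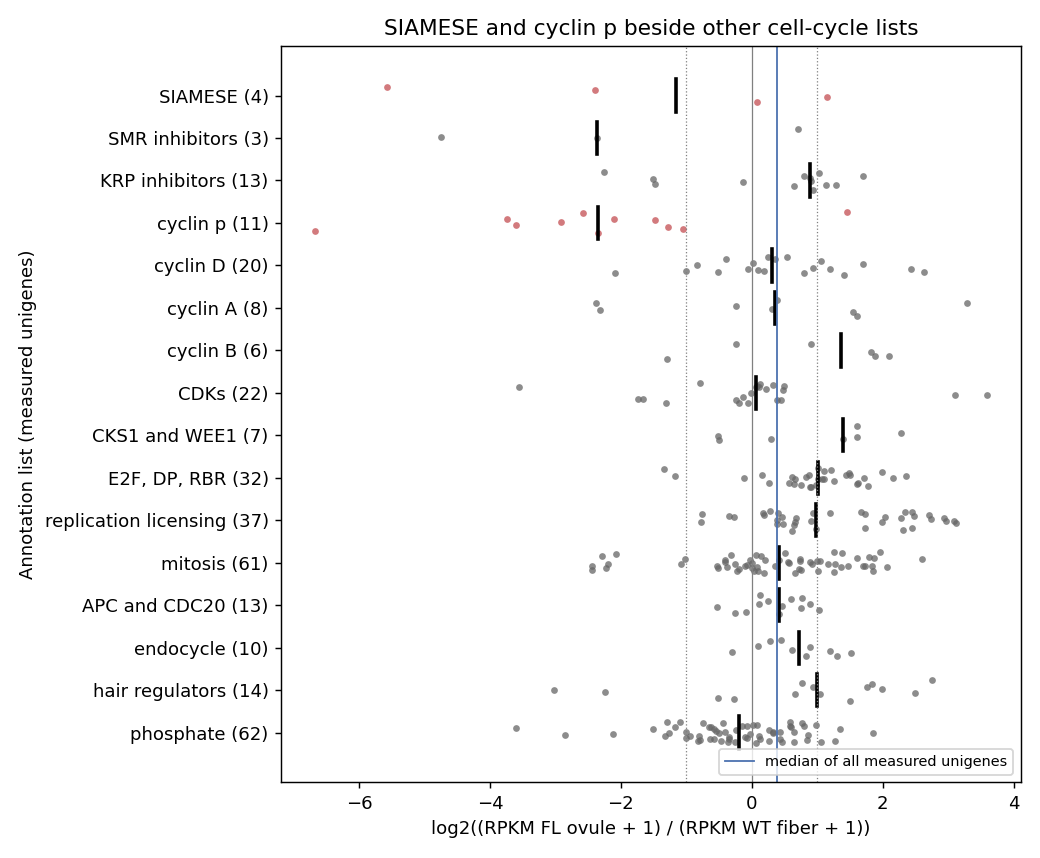
The log2 ratio of FL ovule over WT fiber for each measured unigene of 16 annotation lists, with Siamese and cyclin p in red, list medians as black bars, the median of all measured unigenes (0.39) as a blue line and 2-fold differences as dotted lines. The medians of cyclin p (-2.35), SMR inhibitors (-2.36) and Siamese (-1.16) lie left of the 2-fold line. Those of replication licensing (0.98) and E2F with retinoblastoma-related (1.01) lie right of the blue line.

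Unigenes with texts of epidermal hair regulators were divided. Of 14 unigenes, 2 were at least 2-fold lower in FL ovule and 7 higher (3 and 6 of 13 with equalized RPKM sums). The lower share, 14.3%, was near the 10.5% of all measured unigenes, and the higher share was 50.0% beside 15.3%. Both lower ones carried the text GHMYB25, a cotton MYB factor known from fiber initiation. Unigene0055604 had 0.252 RPKM in FL ovule and 9.11 RPKM in WT fiber, on 12 and 371 reads, 36.2-fold lower (20.5 to 70.7). The homeodomain GLABROUS 2 unigene Unigene0089151 had 8.61 RPKM in FL ovule and 0.427 RPKM in WT fiber, a ratio of 20.2 (10.0 to 47.4).

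Phosphate genes, listed because P-type cyclins resemble Pho80, mostly lay within 2-fold. Of 62 unigenes, 10 were lower in FL ovule and 4 higher, that is 16.1% and 6.45% beside 10.5% and 15.3% of all measured unigenes, with a median log2 ratio of -0.19. Equalizing the RPKM sums gave 22 and 1 of 58, or 37.9% and 1.72% beside 21.0% and 7.25%. Totals without the 30 most-read unigenes gave 8 and 10 of 75, or 10.7% and 13.3% beside 6.34% and 28.4%. Purple acid phosphatase 27 (Unigene0011378), of an enzyme family that frees phosphate, had 2 reads in FL ovule and 428 in WT fiber, 250-fold lower in FL ovule (68.9 to 2075). The purple acid phosphatase 29-like Unigene0051612 had 4 and 85 reads, 24.9-fold lower (9.36 to 93.4).

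The annotated unigenes closest in pattern to SIAMESE, by distance on log2(RPKM + 1) over the 2 libraries, were heat shock protein 70B (Unigene0105439), a pherophorin-dz1 text (Unigene0002553) and Stomagen (Unigene0031878). Their levels were 1.18, 1.20 and 1.20 RPKM in FL ovule and 85.0, 85.0 and 81.3 RPKM in WT fiber, at distances of 0.19, 0.21 and 0.24. Stomagen is known in Arabidopsis as a secreted peptide that promotes stomata. Closest to cyclin p3,2 were an uncharacterized protein (Unigene0068417), an adipocyte plasma membrane-associated protein text (Unigene0047515) and FbLate-2 (Unigene0143623), at distances of 0.11, 0.21 and 0.25. They had 0.794, 0.986 and 0.875 RPKM in FL ovule and 190.0, 169 and 164 RPKM in WT fiber. Within a distance of 0.5 lay 10 annotated unigenes for SIAMESE and 7 for cyclin p3,2, and 2 libraries give only 2 values to match on.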

How the data were processed

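RNA of 1 FL ovule and 1 WT fiber sample was sequenced on an Illumina HiSeq instrument, per the labels' protocols, after oligo-dT enrichment of one part of the RNA and ribosomal RNA depletion of the other. Which part the values come from is not given in the sources used here, nor are the assembler, the annotation database and the strand setting. The submitters' processing notes name Bowtie and Bowtie2. The deposited counts are whole numbers of uniquely placed reads, per the file headers, with totals of 53378441 in FL ovule against 45611990 in WT fiber. The authors derived the deposited RPKM values from these counts, and recomputing them gave every value within a relative error of 5.33e-15. The deposited coverage values exceed 100% in 14 and 9 unigenes, and how they were made is not stated.

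Unigenes listed in only 1 table were given 0 reads in the other. Those reaching an RPKM of 1 in either library were kept, and 1 was added before the log2 ratio. Ratio intervals are Clopper-Pearson intervals and level intervals Poisson intervals, all at 95%. PCR copies of a molecule cannot be told from separate molecules here, so both kinds cover counting error only. Computation used Python 3.11.15, NumPy 2.4.6, pandas 2.3.3 and SciPy 1.17.1, and the interval script was tested on simulated data. Lists were patterns on the annotation text. Both unigenes and the lists were chosen with earlier results of these data known, and patterns were corrected after the matched texts had been seen. Named are all measured Siamese and cyclin p unigenes, from each other list the 2 most changed unigenes among those at 5 RPKM or more, and the 3 annotated unigenes nearest to each of the 2. Unigenes carry no genome position in the deposited tables, and sequences were not used here. Alternatives changed scaling, pseudocount, filter and threshold.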

Additional observations from a re-analysis of the deposited data

How the results depend on the processing

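No paired analysis was possible because each group has 1 library. The depth of the low unigenes limits the folds, with 33 and 45 reads for SIAMESE and cyclin p3,2 in FL ovule. Their log2 ratios of -5.57 and -6.67 moved to -6.44 and -7.58 with a pseudocount of 0.1 and to -4.03 and -5.08 with a pseudocount of 5. They came to -5.97 and -7.07 with equalized RPKM sums and to -5.91 and -7.01 with upper quartile scaling, outside the limits set by the counting intervals of both levels, and stayed inside those limits with the other two scalings. The summed Siamese level, at a log2 ratio of -3.57, came to -4.19 with equalized RPKM sums, -4.03 with upper quartile scaling and -3.21 with totals that leave out the 30 most-read unigenes. The summed cyclin p level, at -3.35, came to -3.98, -3.82 and -3.00 under the same 3 and to -3.21 with median ratio scaling.

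The 10 cyclin p unigenes lower in FL ovule became 6 of 6 at an RPKM of 5 or more, beside 4307 of 19550 among all unigenes. Only Unigene0131124 and Unigene0052920 reached 5 RPKM in both libraries. The others, the chosen Unigene0043383 among them, passed that filter through WT fiber alone and had to be lower in FL ovule. With a pseudocount of 5 the 10 became 6 of 11, beside 2892 of 63258. The 1 higher cyclin p unigene became 0 at an RPKM of 5 or more, with a pseudocount of 5 and at a 4-fold threshold, and the 1 higher Siamese unigene became 0 under those 3 and with equalized RPKM sums and upper quartile scaling. Filter and scaling change how many unigenes are measured, so each count is read against its own total. For the cell-cycle lists, the 80 higher of 232 unigenes became 24 at a 4-fold threshold and 25 with a pseudocount of 5. They became 44 of 103 at an RPKM of 5 or more, and 123 of 284 with totals that leave out the 30 most-read unigenes. The 24 lower of 232 became 13 at a 4-fold threshold and 15 with a pseudocount of 5. Among all unigenes, the 9697 higher of 63258 became 1387 at a 4-fold threshold, and 23140 and 1832 with pseudocounts of 0.1 and 5. They became 3548 of 19550 at an RPKM of 5 or more, 3960 of 54584 with equalized RPKM sums and 5210 of 58884 with upper quartile scaling. With totals that leave out the 30 most-read unigenes they became 25207 of 88792. The 6659 lower of 63258 became 1771 at a 4-fold threshold and 2892 with a pseudocount of 5. They became 4307 of 19550 at an RPKM of 5 or more, 11478 of 54584 with equalized RPKM sums and 10263 of 58884 with upper quartile scaling. A scaling changes every ratio of FL ovule over WT fiber by the same factor before the pseudocount, a log2 shift of -0.63 with equalized RPKM sums, -0.47 with upper quartile scaling, 0.14 with median ratio scaling and 0.36 with totals that leave out the 30 most-read unigenes. The other causes were not tested. Using the patterns as first written, an alternative chosen after seeing the data, left both cell-cycle counts within 1.5 times.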
